A study of Mus musculus with 38 samples.

Results

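The second embryonic mitosis was examined in the polysome fraction, where two-cell embryos held in M-phase (two-cell M) were compared with two-cell embryos in interphase (two-cell). The 6 libraries described here, 3 of each stage, were chosen by their labels and fraction alone, from the 36 libraries with a column in the table, which cover 6 stages in 2 gradient fractions. All groups came from ICR mice. Females at least 6 weeks old were given PMSG and hCG and mated with males of the same strain, and zygotes from their oviducts developed in KSOM medium to the two-cell stage. The treatment label of two-cell embryos reads WT. Two-cell M embryos had additionally received 10 µM nocodazole, a drug that stops microtubules from growing and so holds cells in M-phase; their treatment label names meiosis, whereas their title places them at the two-cell stage. M-phase, the drug and any difference in the age of the embryos therefore cannot be told apart in this comparison. Other groups serve for comparison only: zygote M embryos had also received nocodazole and interphase zygotes had not. GV oocytes and the MII oocytes matured from them in M16 medium come from a protocol that names no nocodazole. A difference from meiosis therefore also cannot be told apart from the drug. The study's gradient method names cycloheximide treatment before lysis, worded for oocytes. Lysates were spread on a sucrose gradient of 10 fractions, and the 5 heavier ones were pooled as polysomes.

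Ribosomes that follow one another along an mRNA form a polysome. Sedimentation in the heavy fractions is therefore read as a sign that an mRNA is being, or is ready to be, translated, which was not tested here. Entry into M-phase lowers protein synthesis as a whole in many cells, while some mRNAs stay on ribosomes. The two-cell stage of the mouse is also when mRNAs stored in the egg are cleared and the embryo's own genome is switched on. FPKM is the number of sequenced fragments scaled to transcript length and to the size of the library, so each value is a share of its own library: it shows neither how much RNA the fraction held nor how many ribosomes an mRNA carried, and fewer polysomes per embryo cannot be told apart from fewer copies of an mRNA in them.

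Many mRNAs of ribosomal proteins begin with a C followed by a run of C and T, the terminal oligopyrimidine (TOP) tract, through which their translation is tied to growth signals. A window of 15 bases before and 15 from the annotated RefSeq start (GRCm38.p6, strand of the gene, 5′ to 3′) is shown for ribosomal protein genes with a tract, for one without, and for other genes named in the text, because the levels of all of them in two-cell M polysomes are given below. Capitals mark a run of C and T of at least 8 bases that starts with C within 10 bases of the start; a window with no capitals has no such run.
Rpl14, chr9:120571502-120571531, plus strand: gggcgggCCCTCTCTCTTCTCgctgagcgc
Rpl35a, chr16:33056467-33056496, plus strand: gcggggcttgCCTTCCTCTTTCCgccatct
Rps24, chr14:24490663-24490692, plus strand: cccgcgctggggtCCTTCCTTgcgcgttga
Rps6, chr4:86857353-86857382, minus strand: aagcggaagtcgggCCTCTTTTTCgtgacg
Rpl35, chr2:39005117-39005146, minus strand: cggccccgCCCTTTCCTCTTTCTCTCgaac
Rpl41, chr10:128549154-128549183, minus strand: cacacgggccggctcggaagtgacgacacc
Nip7, chr8:107056862-107056891, plus strand: ggcgggtgggaaagtgacttccgcttccgg
Cdc20, chr4:118437329-118437358, minus strand: gaaggagccaatgaacgctagcagcggaga
Cenpa, chr5:30666871-30666900, plus strand: taaaagatgcggtgggaggggcgggtgatt
Elob, chr17:23829095-23829124, minus strand: cggccgcgccggcgcgtcgagccagaagca
Ooep, chr9:78378574-78378603, minus strand: ggggtcgggctgggcagctttgaaaagcga

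Of the 7967 genes tested, 648 (8.13%) rose in the polysomes of two-cell M relative to two-cell, and 2242 (28.1%) fell. A gene was tested if its geometric mean over the 36 libraries reached 0.1 FPKM, and called if limma's two-sided test gave a Benjamini-Hochberg adjusted p under 0.05 and a change beyond 2-fold. Over the 7967 genes the median log2 fold change stood at -1.17, so much of the tested set lay lower in two-cell M, and changes are read against that shift. The median depended on the filter: it was 0.00 with no filter and -1.17 with a mean of at least 1 FPKM. With the filter over the 12 two-cell and two-cell M libraries, chosen after seeing the data, it was -0.15, with 13.2% higher and 22.4% lower. The shares over all genes given below hold for the filter over 36 libraries. The split between directions depended on the scaling: with each library centred on its own median, 1448 genes were called higher and 1213 lower (54.4% of calls higher, against 22.4%), and with quantile normalization 1482 and 1490. Centring moves every gene up alike, which took the median of all genes from -1.17 to 0.25, so that rises kept under it, and counts and medians that turn positive under it, follow from that shift and are no support for a rise. The 3 libraries of each group did not overlap for 1201 genes (15.1%) that lay higher in two-cell M and 2260 (28.4%) that lay lower. Of the genes called lower, 1406 stood at the smallest value of the table, 0.01 FPKM, in at least 1 library of two-cell M, and the size of such a fold change depends on that 0.01.

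The libraries themselves differed between the stages. The low values of single-exon genes implied depths of 20.47M, 21.02M and 19.1M fragments (M, mega) for two-cell A, B and C and of 19.45M, 14.41M and 11.11M fragments for two-cell M A, B and C, and 12625 to 13480 genes stood above the smallest value in two-cell against 9542 to 12042 in two-cell M. The 10 most abundant genes held 19.5 to 25.3% of the summed FPKM in two-cell and 36.2 to 38.6% in two-cell M. Among those 10 in two-cell M were an rRNA gene (CT010467.1, a log2 fold change of 1.58 ± 0.46, SE), the 7SL RNA genes Rn7s1 and Rn7s2 (2.48 ± 0.75 and 2.42 ± 0.78) and pseudogenes such as Gm28437 (2.03 ± 0.37). The part of depth and of these RNAs in the calls was not tested. Replicates of two-cell M correlated across genes at 0.674 to 0.713 and those of two-cell at 0.713 to 0.751, against 0.414 to 0.532 between the groups (Pearson r of log2 FPKM, genes not being independent replicates).

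Ribosomal protein mRNAs rose in two-cell M polysomes. Of 83 genes of the cytosolic ribosome that were tested, 56 (67.5%) were called higher and 1 (1.2%) lower, beside 8.13% and 28.1% over all genes. In this list 82 had a positive log2 fold change, with a median of 2.73 over the list against -1.17 over all genes. Rpl41, which encodes a very short protein of the large subunit, was at 60.3, 87.0 and 102 FPKM in two-cell A, B and C and at 1694, 1152 and 729 FPKM in two-cell M A, B and C. It was the most abundant of the rising ribosomal protein mRNAs named here in two-cell M, and each M-phase library lay above all interphase ones (log2 fold change 3.79 ± 0.51, SE, n = 3 and 3; limma, adjusted p = 2.38e-06). Rplp1, an acidic protein of the ribosomal stalk, rose from 22.5, 33.4 and 18.4 FPKM to 285, 355 and 236 FPKM (3.58 ± 0.56, adjusted p = 1.46e-05), again with no overlap.

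**Figure D1:**
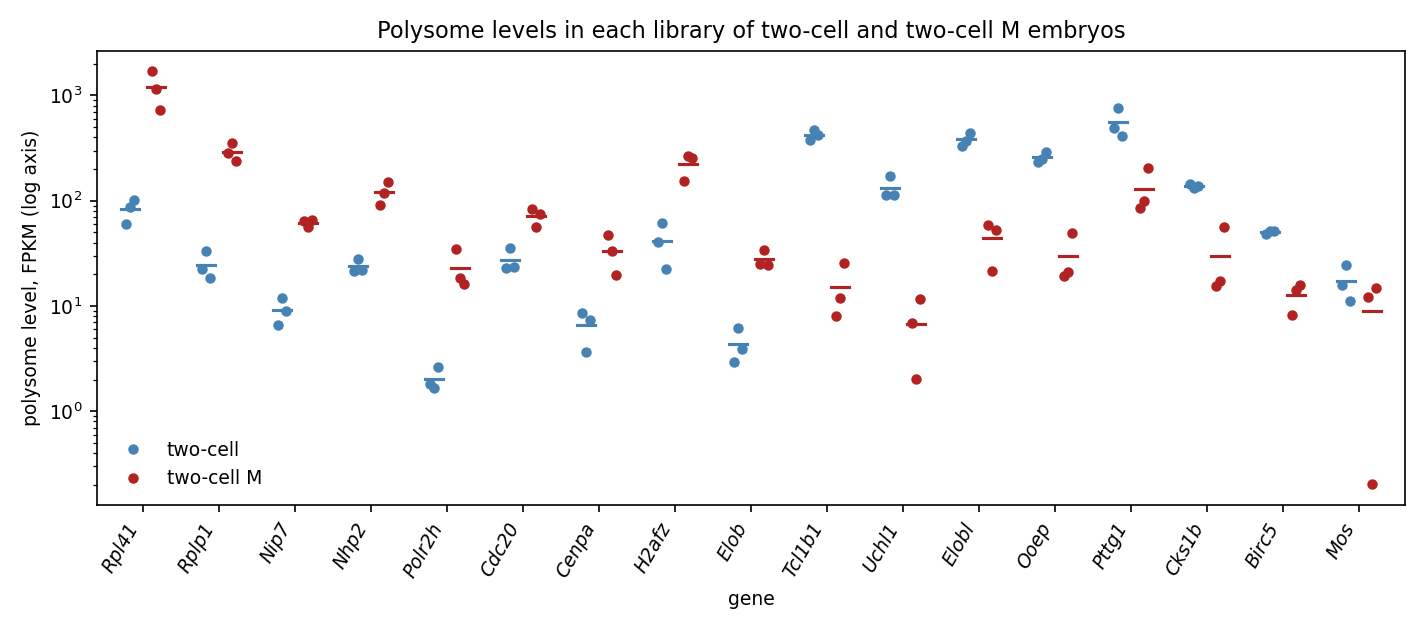
FPKM in polysomes (log axis) of named genes in each library of two-cell (blue) and two-cell M (red); points are libraries and bars are group means. The ribosomal, Nip7, Nhp2 and Polr2h points of two-cell M lie above those of two-cell, Tcl1b1, Uchl1, Elobl and Ooep lie below, and the groups overlap for Mos.

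The 56 called ribosomal protein genes had log2 fold changes of 1.15 to 6.34 with a median of 3.02. Rpl14, Rpl35a, Rps24 and Rps6, whose start windows carry a tract, had log2 fold changes of 6.34 ± 1.34, 3.09 ± 0.82, 3.45 ± 0.55 and 2.83 ± 0.71. Rps24 went from 0.692, 0.603 and 1.64 FPKM to 7.93, 9.25 and 12.18 FPKM. Rpl14 went from 0.01, 0.239 and 0.228 FPKM to 7.45, 5.35 and 7.23 FPKM. Rpl35a went from 0.154, 0.112 and 0.120 FPKM to 1.38, 1.03 and 0.900 FPKM. All 3 were low in interphase and did not overlap between the groups. Rps6, the substrate of S6 kinase in the small subunit, was at 0.994, 2.48 and 1.14 FPKM in two-cell and at 8.01, 10.7 and 11.7 FPKM in two-cell M, without overlap. Rpl35, which the study names, was at 1.01, 1.60 and 1.84 FPKM against 3.73, 5.95 and 5.31 FPKM. Its groups did not overlap either, but its call (1.77 ± 0.62, adjusted p = 0.0271) was lost without two-cell M B, without two-cell M C or without two-cell A, where the adjusted p reached at most 0.106. The only member called lower, Rpl21 (1.93, 1.01 and 0.829 FPKM against 0.01, 0.0267 and 0.517 FPKM), lost its call without two-cell M A, two-cell M B, two-cell A or two-cell B, after centring and after quantile normalization. Members that were not called included Rps27l, at 29.1, 30.3 and 32.7 FPKM in two-cell and 35.2, 23.9 and 34.8 FPKM in two-cell M (0.01 ± 0.39, adjusted p = 0.993), and Rplp0, which passed the p threshold at 0.0178 but changed by less than 2-fold (0.97 ± 0.32). With quantile normalization 66 of the list were called higher and 0 lower (median 3.10), and 42 to 56 were called higher when 1 of the 6 libraries was left out, the lowest count being that without two-cell M B. With a weight per library (arrayWeights) 29 were called higher and 1 lower. Because these genes have many processed pseudogenes, their reads may be split between copies, and single values are uncertain on that account.

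The tract did not separate the ribosomal protein genes that were called from those that were not. A run of C and T was present near the start of 25 of 62 ribosomal protein genes with a window (40.3%), against 521 of 5241 tested genes (9.94%) and 2549 of 27025 genes in the whole window table (9.43%). It was present in 17 of 42 of those called higher (40.5%) and in 8 of 20 of those not called (40%). Among genes called higher that encode no cytosolic ribosomal protein it was present in 28 of 318 (8.81%), close to the share over all genes. The match describes these letters in this window only, and annotated starts can differ from the starts used in the embryo.

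Part of the genes that build ribosomes and RNA polymerases were called higher. Of 74 tested genes of ribosome biogenesis, 20 (27.0%) were called higher and 0 lower, beside 8.13% and 28.1% over all genes, with a median log2 fold change of 1.89 against -1.17 and 0 falling at an unadjusted p under 0.05. Nip7, a factor in the maturation of pre-ribosomal particles, was at 6.59, 11.9 and 8.90 FPKM in two-cell and at 64.1, 56.1 and 65.9 FPKM in two-cell M. The 3 M-phase libraries were tightly grouped and well above the others (2.80 ± 0.44, adjusted p = 1.82e-05). Nhp2, a protein of the H/ACA particles that guide pseudouridine formation in rRNA, rose from 21.3, 28.1 and 21.8 FPKM to 91.3, 119 and 152 FPKM (2.33 ± 0.52, adjusted p = 0.000919). Most other called members were low in interphase: the rRNA processing factor Bop1 was at 0.165, 0.747 and 1.04 FPKM in two-cell and 12.04, 11.2 and 4.82 FPKM in two-cell M (4.10 ± 1.18, adjusted p = 0.00803), a gene named after its values were seen. Leaving out 1 library left 11 to 16 of the list called higher, with the lowest count without two-cell M B, and arrayWeights left 9.

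Of 24 tested subunits of the RNA polymerases, 8 (33.3%) were called higher and 2 (8.33%) lower, beside 8.13% and 28.1% over all genes, with a median of 1.66. After centring 14 were higher and 0 lower. Polr2h, shared by all nuclear RNA polymerases, was at 1.80, 1.65 and 2.65 FPKM in two-cell and at 34.9, 18.3 and 16.3 FPKM in two-cell M (3.46 ± 0.56, adjusted p = 2.33e-05). Polr2j, of RNA polymerase II, rose from 26.1, 32.8 and 38.8 FPKM to 92.0, 67.7 and 190 FPKM (1.72 ± 0.42, adjusted p = 0.00232). Neither gene's groups overlapped. Polr2i, another subunit of that enzyme, was at 12.1, 16.9 and 5.88 FPKM against 42.7, 25.7 and 35.2 FPKM, and its call (1.67 ± 0.54, adjusted p = 0.0172) was lost without two-cell M A or two-cell C, at an adjusted p of at most 0.112. The subunits Polr2g and Polr2c fell, by 3.47 and 1.72 on the log2 scale, although neither call remained after centring.

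Translation factors were called in both directions, in a balance that depended on the scaling. Of 44 tested initiation factors 9 (20.45%) were called higher and 5 (11.4%) lower (median 1.02), and of 14 elongation and termination factors 4 (28.6%) were higher and 3 (21.4%) lower (median 0.50), beside 8.13% and 28.1% over all genes. After centring the initiation factors had 18 higher and 2 lower, and with quantile normalization 19 and 4. The elongation and termination factors had 6 and 1, and 3 and 3. Leaving out 1 library gave 4 (without two-cell M B) to 9 initiation factors higher and 3 to 6 lower. It gave 0 (without two-cell C, as with arrayWeights) to 3 elongation and termination factors higher and 1 to 3 lower. Eif1, which takes part in start codon selection, was at 109, 106 and 142 FPKM in two-cell and at 245, 277 and 304 FPKM in two-cell M (1.22 ± 0.24, adjusted p = 0.0003). Eif6, which keeps free large subunits from joining small ones, rose from 75.1, 157 and 72.7 FPKM to 189, 242 and 256 FPKM (1.26 ± 0.33, adjusted p = 0.00423). Both were abundant in interphase polysomes and rose without overlap. The oocyte-type cap-binding protein Eif4e1b fell from 22.2, 54.0 and 23.4 FPKM to 0.0331, 0.134 and 4.47 FPKM (-6.81 ± 0.98, adjusted p = 5.46e-06). The poly(A)-binding protein Pabpc1l fell from 16.7, 9.76 and 10.3 FPKM to 1.16, 0.0155 and 1.16 FPKM (-5.43 ± 1.15, adjusted p = 0.000563). These 2, the falling initiation factors with the smallest adjusted p, are forms typical of the oocyte. Of 18 aminoacyl-tRNA synthetases 0 were called higher by limma (2 at an unadjusted p under 0.05) and 3 lower, but after centring 3 were higher and 1 lower. In the mTOR pathway, which signals to TOP mRNAs, 1 of 24 genes (Rps6, described above) was higher and 5 were lower, against 1 and 1 after centring. The shares lower in both lists, 16.7% and 20.8%, lay below the 28.1% over all genes, and without two-cell M A they became 1 and 3 genes.

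Other housekeeping genes were called in both directions, against 8.13% higher and 28.1% lower over all genes. Of 38 proteasome genes, 7 (18.4%) were higher and 4 (10.5%) lower (median 0.26), against 11 and 2 after centring. Without two-cell A 3 were called higher. The assembly factor Pomp went from 0.282, 0.281 and 0.341 FPKM to 3.53, 2.93 and 2.59 FPKM (3.32 ± 0.44, adjusted p = 1.94e-06), and the core subunit Psma5 from 0.103, 0.0533 and 0.01 FPKM to 1.12, 1.52 and 1.77 FPKM (adjusted p = 3.13e-06). Both were low in each library and did not overlap between the groups. Of 75 nuclear genes of oxidative phosphorylation, 12 were higher and 7 lower (median 0.18), against 29 and 2 after centring. Leaving out 1 library gave 8 to 12 higher and 5 to 11 lower, and arrayWeights gave 6 and 6. Of 75 mitochondrial ribosomal proteins, 7 were higher and 12 lower (18 and 6 after centring), with a median of -0.31 that turned to 1.11 after centring and 0.53 after quantile normalization. Uqcrq, a subunit of respiratory complex III, rose from 16.9, 37.4 and 34.4 FPKM to 222, 205 and 112 FPKM (2.62 ± 0.48, adjusted p = 0.00012). In contrast, Cox8a, a subunit of complex IV, was at 343, 684 and 389 FPKM against 139, 183 and 147 FPKM and fell by 1.54 on the log2 scale, a call that was lost after centring. Of 47 spliceosomal Sm and LSm genes, 5 were higher and 2 lower (median 0.54), against 15 and 0 after centring. Leaving out 1 library gave 2 (without two-cell A) to 5 higher and 0 to 4 lower. Snrpb, a core protein of the snRNPs, rose from 0.976, 0.296 and 0.462 FPKM to 9.84, 28.6 and 15.5 FPKM (5.00 ± 0.95, adjusted p = 0.000175). Of 11 snoRNA host transcripts, which carry small nucleolar RNAs in their introns, 3 were higher (Gas5, Snhg20 and Zfas1) and 0 lower (1 at an unadjusted p under 0.05), with a median of 2.41. Of 40 chaperones 2 were higher and 2 lower, against 14 and 0 after centring and 17 and 1 with quantile normalization. These became 2 to 4 higher and 1 to 3 lower when 1 library was left out. The prefoldin subunit Pfdn6, the riser with the smallest adjusted p, went from 3.19, 6.16 and 11.4 FPKM to 138, 90.5 and 132 FPKM (4.28 ± 0.88, adjusted p = 0.000435).

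**Figure D2:**
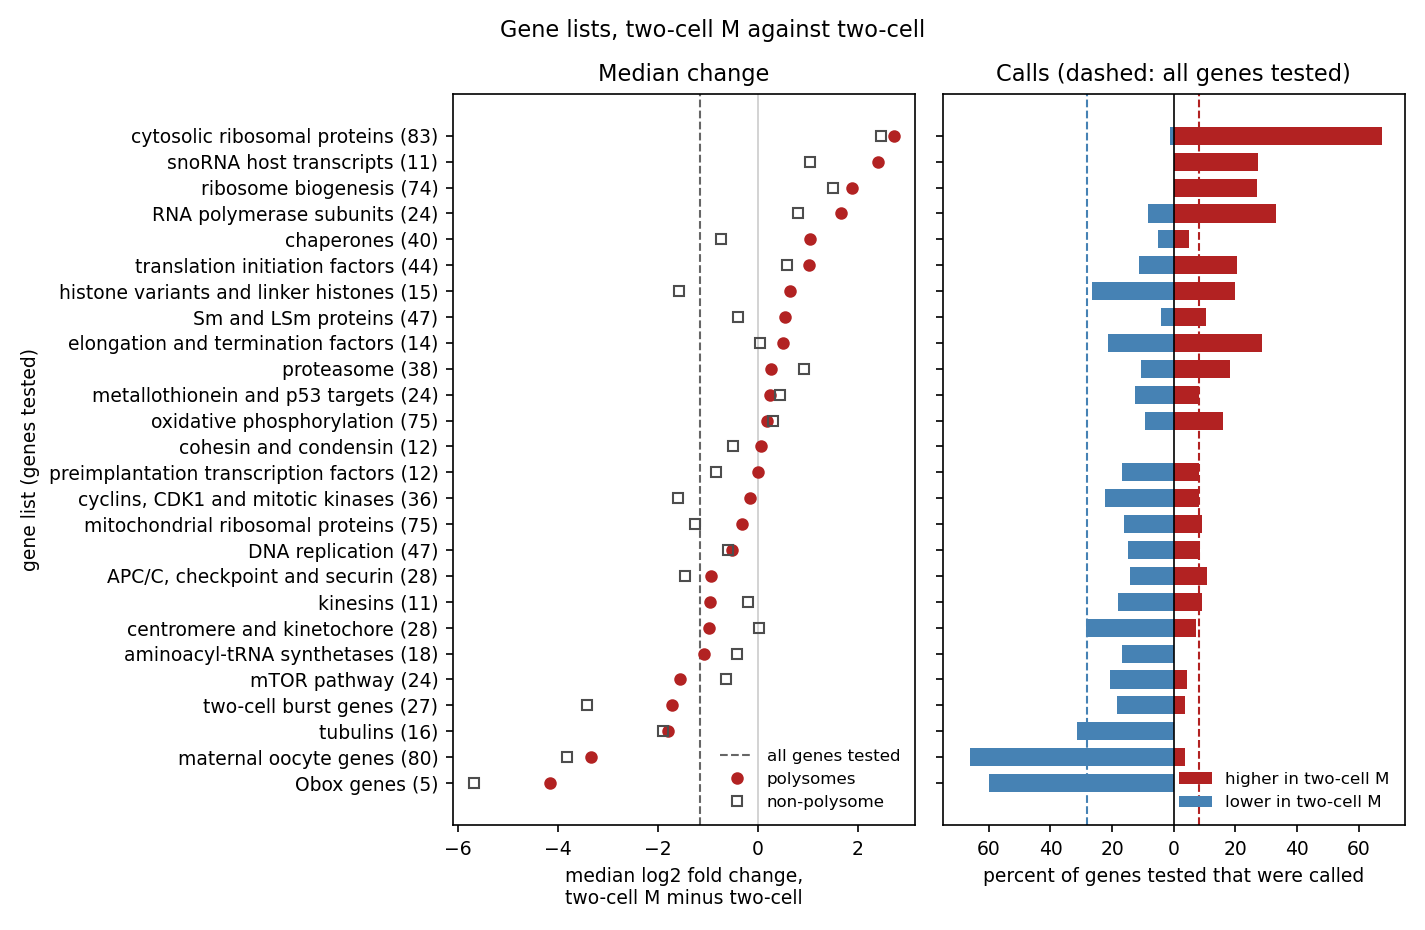
Left, median log2 fold change of each gene list in polysomes (red) and in the non-polysome fraction (open squares), with the median of all genes tested in polysomes dashed; right, percent of each list called higher (red) or lower (blue), with the shares over all genes dashed. Cytosolic ribosomal proteins have 67.5% called higher, and maternal oocyte genes have 66.3% called lower.

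Maternal mRNAs moved the other way. Of 80 tested genes known for expression in the oocyte, 53 (66.25%) were called lower and 3 (3.75%) higher, beside 28.1% and 8.13% over all genes. The median log2 fold change of the list was -3.34 against -1.17 over all genes, with falls of 1.54 to 7.80 on the log2 scale among those called lower. Tcl1b1, of a gene family read from one cluster on chromosome 12, was at 376, 471 and 421 FPKM in two-cell and at 8.02, 11.9 and 25.5 FPKM in two-cell M. The groups were separated by more than 10-fold (-4.97 ± 0.41, adjusted p = 3.68e-10), although reads may be split among the similar Tcl1b genes. Uchl1, a ubiquitin hydrolase, fell from 112, 173 and 112 FPKM to 6.88, 2.02 and 11.5 FPKM (-4.58 ± 0.43, adjusted p = 4.3e-09). Elobl, an oocyte homologue of elongin B, fell from 330, 374 and 443 FPKM to 59.2, 21.6 and 52.6 FPKM (-3.22 ± 0.32, adjusted p = 1.19e-08). Ooep, of the subcortical maternal complex, was at 236, 250 and 290 FPKM against 19.4, 20.99 and 49.6 FPKM (-3.24 ± 0.42, adjusted p = 1.12e-06). For all of these the lowest interphase library was above the highest M-phase library.

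Not every maternal mRNA followed. Dppa5a, an RNA-binding protein of early embryos and pluripotent cells, rose from 99.3, 155 and 91.3 FPKM to 1179, 874 and 481 FPKM (2.82 ± 0.42, adjusted p = 7.99e-06). Dppa3, which protects maternal DNA methylation, was at 42.8, 28.5 and 42.2 FPKM against 167, 59.1 and 64.3 FPKM (1.21 ± 0.38, adjusted p = 0.0153), and Trim28, a co-repressor of transposable elements, at 0.617, 1.33 and 0.01 FPKM against 4.01, 4.59 and 7.52 FPKM (4.68 ± 1.33, adjusted p = 0.00718); the call of Dppa3 was lost without two-cell M A or two-cell B, and that of Trim28 without two-cell C. Mos, the kinase that holds the egg in meiosis II, was at 16.0, 24.8 and 11.1 FPKM in two-cell and at 12.2, 0.202 and 14.7 FPKM in two-cell M. Its groups overlapped, with two-cell M B far below the rest, and it was not called (-2.31 ± 1.44, adjusted p = 0.218). The fall of the list held with fewer calls after centring (36 lower, 3 higher, median -1.93) and after quantile normalization (48 lower, 3 higher, median -2.61), and 43 to 54 were called lower when 1 library was left out.

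Many genes of 3 lists did not pass the filter: the two-cell burst, the Obox genes and the transcription factors of the preimplantation embryo. Of 55 genes of the two-cell burst in the table, 27 passed the filter over 36 libraries, of which 5 (18.5%) were called lower and 1 (3.70%) higher, below the shares of 28.1% and 8.13% over all genes. The filter passes over genes seen only at the two-cell stage. With the filter applied to the 12 two-cell and two-cell M libraries instead, a choice made after seeing the data, 48 were tested, 10 called lower and 3 higher, with a median of -1.31. Under that filter 22.4% of all genes were called lower and 13.2% higher, with a median of -0.15, so these counts are no result about the burst genes. Among the 27, leaving out 1 library gave 3 (without two-cell M A) to 8 called lower. The share lower was therefore not below that over all genes in every fit. Zscan4c, of the cluster that marks the burst, was at 9.27, 2.38 and 5.55 FPKM in two-cell and at 0.0162, 0.131 and 0.113 FPKM in two-cell M, and its near-identical copies share reads; its call (adjusted p = 0.00926) was lost without two-cell M A. Zfp750, a zinc finger gene, fell from 1.66, 3.01 and 2.24 FPKM to 0.0162, 0.01 and 0.01 FPKM (adjusted p = 1.18e-05). Gm7102, the only member called higher over 36 libraries, was at 0.240, 0.215 and 0.323 FPKM against 2.36, 5.88 and 14.9 FPKM. Of the 5 tested Obox homeobox genes 3 were lower, among them Obox5, from 54.6, 31.1 and 22.7 FPKM to 1.94, 0.340 and 10.2 FPKM (-4.16 ± 1.01, adjusted p = 0.00208), a call that was lost after centring. The Obox list also changed in oocyte polysomes, with a median log2 fold change of 2.52 from GV to MII. Its falls therefore cannot be read as those of mRNAs first made by the embryo. Of 12 tested transcription factors of the preimplantation embryo 1 was higher (Sox15, a call lost without two-cell C) and 2 were lower (Pou5f1, and Klf17 with a log2 fold change of -1.11, which turned to 0.31 with the shift that centring gives every gene). The call of Klf17 held in 1 of 6 leave-one-out fits, that without two-cell B, with an adjusted p of up to 0.268 in the others, and was lost with quantile normalization. The larger fall was that of the pluripotency factor Pou5f1, from 75.8, 101 and 56.6 FPKM to 5.30, 0.535 and 26.1 FPKM (-4.17 ± 1.23, adjusted p = 0.0092), which lost its call without two-cell M B (adjusted p = 0.104) and after centring. With the filter over the 12 libraries 16 of these factors were tested, 3 called higher and 2 lower (median 1.56 against 0.01), but that filter also moved the median of all genes and, of the 959 genes it added, 262 were called higher and 41 lower.

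Genes of the mitotic machinery had shares of calls near or below those over all genes (8.13% higher and 28.1% lower), which is no result about the lists. Of 36 tested cyclins, CDK1 partners and mitotic kinases, 3 (8.33%) were called higher and 8 (22.2%) lower, and of 28 genes of the anaphase-promoting complex, the spindle checkpoint and securin, 3 (10.7%) were higher and 4 (14.3%) lower. After centring these became 9 and 5, and 7 and 1, and the medians turned from -0.15 and -0.94 to 1.27 and 0.47. Cdc20, the co-activator that starts anaphase, was at 23.0, 35.9 and 23.4 FPKM in two-cell and at 82.9, 56.8 and 74.3 FPKM in two-cell M. It rose without overlap (1.39 ± 0.36, adjusted p = 0.00346), also with quantile normalization and whichever library was left out, but its call was lost with arrayWeights. Plk4, the kinase that starts centriole assembly, rose from 3.66, 4.99 and 3.95 FPKM to 31.7, 38.9 and 14.3 FPKM (2.64 ± 0.69, adjusted p = 0.0036), and Mad2l2 from 5.02, 11.9 and 6.50 FPKM to 21.3, 26.04 and 22.3 FPKM (1.66 ± 0.42, adjusted p = 0.00297). Cks1b, a partner of cyclin-dependent kinases, fell from 145, 132 and 139 FPKM to 15.6, 17.3 and 56.5 FPKM (-2.48 ± 0.36, adjusted p = 6.99e-06). Securin (Pttg1) was at 495, 754 and 415 FPKM against 86.0, 99.0 and 206 FPKM (-2.16 ± 0.37) and survivin (Birc5) at 48.0, 51.1 and 52.0 FPKM against 8.29, 14.3 and 15.8 FPKM (-2.03 ± 0.36); neither pair of groups overlapped, and both calls were lost after centring.

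Of 28 centromere and kinetochore genes 2 (7.14%) were called higher and 8 (28.6%) lower, near the shares over all genes (8.13% and 28.1%), and after centring 3 and 1, with the median turning from -0.98 to 0.44. Without two-cell M B 4 were called lower. Cenpa, the histone H3 variant that marks centromeres, rose from 8.67, 3.66 and 7.43 FPKM to 47.1, 33.7 and 19.9 FPKM (2.36 ± 0.54, adjusted p = 0.00128). H2afz, the H2A.Z variant, was at 40.3, 60.9 and 22.3 FPKM in two-cell and at 155, 268 and 254 FPKM in two-cell M (2.53 ± 0.54, adjusted p = 0.000547), and H3f3b, one of the H3.3 genes, at 29.4, 34.7 and 30.7 FPKM against 59.8, 83.2 and 66.7 FPKM (1.13 ± 0.22, adjusted p = 0.000284). All 3 of these histone variants rose without overlap. Of 15 tested histone variants and linker histones 3 were higher and 4 lower (8 and 1 after centring), the lower ones including the germ-line forms Hist1h2ba and H1foo. The call of H1foo was lost without two-cell M A, two-cell M B or two-cell C, at an adjusted p of at most 0.192, after centring and with only the groups compared, and without two-cell M B 1 of the 15 was called lower. Of 16 tubulins, the building blocks of microtubules that nocodazole binds, 0 were higher, also at an unadjusted p under 0.05, and 5 (31.25%) lower, near the 28.1% over all genes (median -1.79), against 0 and 2 after centring. Of 11 kinesins 1 was higher and 2 were lower (2 and 2 after centring), of 47 DNA replication genes 4 and 7 (8 and 2 after centring; 1 higher without two-cell M B, and 3 lower without two-cell A), and of 12 genes of cohesin and condensin 0 and 0, in limma and at an unadjusted p under 0.05 alike.

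A few single genes changed sharply. Elob, the general elongin B, rose from 2.91, 6.15 and 3.87 FPKM to 25.0, 34.3 and 24.6 FPKM (2.75 ± 0.69, adjusted p = 0.00268), opposite to its oocyte homologue Elobl. Of 24 tested metallothionein and p53 target genes, 2 (8.33%) were higher and 3 (12.5%) lower (8 and 3 after centring), near or below the 8.13% and 28.1% over all genes. Gadd45b, a stress-induced gene, rose from 4.87, 7.80 and 7.08 FPKM to 57.4, 83.7 and 103 FPKM (3.62 ± 0.85, adjusted p = 0.00158), while the peroxiredoxin Prdx2 fell from 736, 1102 and 788 FPKM to 58.6, 67.1 and 133 FPKM (-3.42 ± 0.41, adjusted p = 3.75e-07). The groups did not overlap for either. Rises were ranked among called protein-coding genes whose groups did not overlap. Two-cell M also had to reach a mean of 10 FPKM, with every library at 1 FPKM or more. Among the 10 genes with the largest rises within these limits, Yrdc, an enzyme of tRNA modification, was at 0.374, 0.307 and 1.09 FPKM against 49.7, 43.5 and 47.1 FPKM (6.54 ± 1.85, adjusted p = 0.00681), and Ctsz, a cathepsin, at 0.649, 0.0141 and 0.355 FPKM against 19.1, 11.6 and 13.9 FPKM. Of the others, Ankrd10 and Dohh kept their calls whichever library was left out, and Hist1h4i, Commd5, Dolk, Tor1b, Faap24 and Endog, each with an interphase library near 0.01 FPKM beside a higher one, did not: their leave-one-out fits kept 4, 2, 2, 5, 2 and 3 of 6 calls. Of the genes named by rule in the text, Ankrd10, Cdc20, Cox8a, Ctsz, Dolk, Dppa3, Eif6, Endog, Faap24, Gadd45b, Gm7102, Gpx1, Hist1h4i, Klf17, Polr2i, Polr2j, Pttg1, Rpl35, Snhg20, Sox15, Tor1b, Zfas1 and Zscan4c lost their calls with arrayWeights. With only the groups compared, Commd5, Dolk, Dppa3, Eif6, Endog, Faap24, H1foo, Klf17, Obox5, Pabpc1l, Polr2g, Polr2i, Pou5f1, Rpl21, Rpl35, Tor1b and Trim28 lost theirs.

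Falls were ranked in the same way as the rises, with the limits on FPKM set on two-cell. Within these limits the 10 largest falls were in F8a, Nat6, Hsd3b7, Psrc1, Derl3, Fbxl14, Fam189b, Pdlim2, Pigc and Kcng4, all of which kept their calls whichever library was left out. F8a, on chromosome X, was at 77.3, 184 and 59.2 FPKM in two-cell and at 0.0511, 0.01 and 0.0459 FPKM in two-cell M. Derl3, a protein of endoplasmic reticulum quality control, was at 139, 243 and 126 FPKM against 0.0507, 0.312 and 0.117 FPKM, and Hsd3b7, a steroid dehydrogenase, at 70.8, 143 and 45.8 FPKM against 0.0422, 0.0959 and 0.0381 FPKM. These abundant interphase mRNAs were at 0.312 FPKM or less in every M-phase library, and Nat6 was listed at 0.01 FPKM in all 3. At the first mitosis the values of F8a were unlike these: it was at 85.2, 107 and 105 FPKM in zygote polysomes and at 77.6, 103 and 86.5 FPKM in zygote M.

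Shorter coding sequences held more of the rises. Over 5 equal bins of the protein-coding genes by coding length, the share called higher went from 13.0% at 111 to 612 bases through 8.42, 5.24 and 4.91% to 4.11% at 1983 to 16764 bases. Without the cytosolic ribosomal proteins the shortest bin had 10.1%. The share called lower lay between 24.8 and 31.4% in all bins, lowest in the shortest. This is a description across genes, which are not independent replicates.

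**Figure D3:**
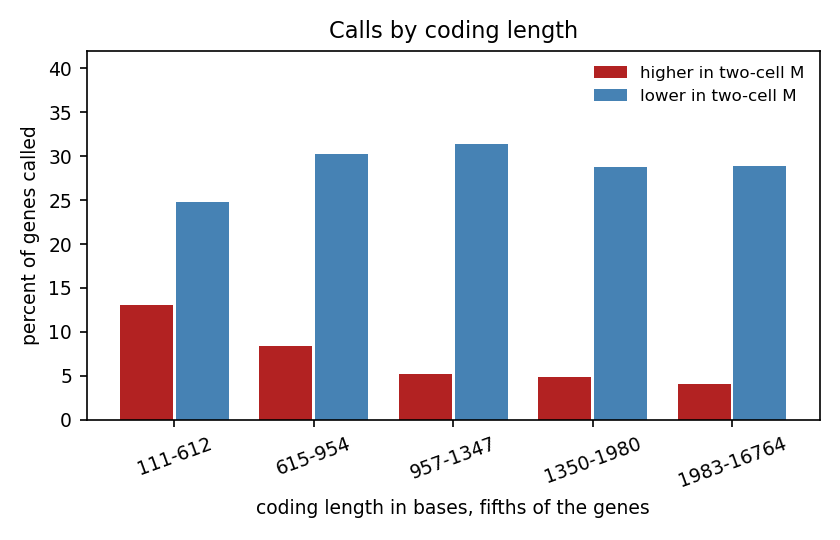
Percent of protein-coding genes called higher (red) or lower (blue) in two-cell M polysomes in 5 equal bins of coding length in bases. The red bars fall from 13.0% to 4.11%, and the blue bars stay between 24.8% and 31.4%.

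The polysome change was next set beside that of the non-polysome fraction, the lighter gradient fractions, to ask whether mRNAs moved between fractions or changed in both. In the non-polysome fraction 651 genes were called higher and 2227 lower, with a median of -1.14. Of the 648 genes called higher in polysomes, 578 had the same sign there, 315 were called the same way and 12 the opposite way. Of the 2242 called lower, 1976 had the same sign, 1331 were called the same way and 10 the opposite way. The difference of the changes itself was called for 458 genes (5.75%), of which 255 (3.2%) had a more positive change in polysomes and 203 (2.55%) a more negative one. For cytosolic ribosomal proteins the non-polysome median was 2.47 and the difference was called for 0 of 83 genes by limma (6 more positive in polysomes and 5 more negative at an unadjusted p under 0.05), and for maternal genes the non-polysome median was -3.82, with 8 of 80 genes called as less reduced in polysomes and 0 as more reduced (3 at an unadjusted p under 0.05).

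**Figure D4:**
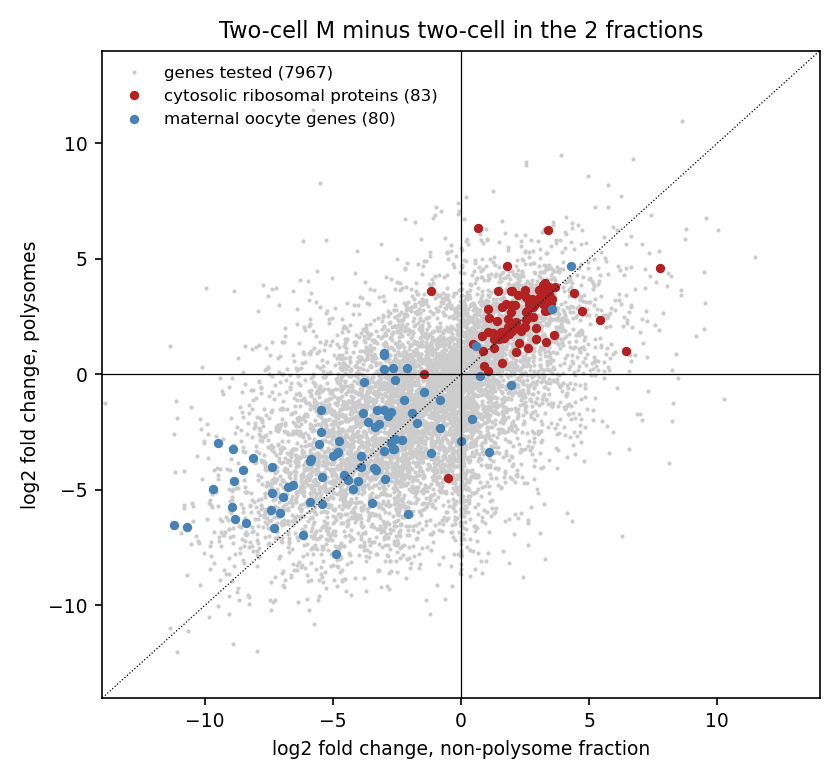
Log2 fold change of two-cell M minus two-cell in polysomes (vertical) against the non-polysome fraction (horizontal) for the 7967 genes tested (grey), with cytosolic ribosomal proteins in red and maternal oocyte genes in blue; the dotted line marks equal change. Red points lie mostly in the upper right and blue points in the lower left.

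As summed levels, the 87 cytosolic ribosomal protein genes in the table took 0.654, 0.944 and 0.672% of the summed FPKM in two-cell polysomes and 4.28, 3.95 and 2.61% in two-cell M polysomes. The 3 M-phase libraries were all higher, with a mean of 3.62 ± 0.884% against 0.757 ± 0.162% (SD, n = 3). In the non-polysome fraction the means were 5.82% and 1.63%, so the sum was larger outside polysomes in both stages. The 86 maternal genes took 7.46, 7.09 and 7.17% in two-cell and 1.74, 1.42 and 1.87% in two-cell M polysomes, and 14.1% and 3.73% on average in the non-polysome fraction.

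Single genes did part between the fractions. Gpx1, a glutathione peroxidase, rose in polysomes from 86.8, 179 and 114 FPKM to 387, 274 and 628 FPKM while it fell outside them from 436, 345 and 317 FPKM to 201, 89.5 and 208 FPKM. The difference of the changes was 2.97 ± 0.64 on the log2 scale (limma, adjusted p = 0.00427). Rce1, a protease that trims prenylated proteins, was at 5.25, 6.56 and 3.01 FPKM in two-cell and at 2.99, 0.601 and 6.21 FPKM in two-cell M polysomes, groups that overlap. Outside polysomes it went from 0.0443, 0.0595 and 0.0258 FPKM to 52.9, 81.6 and 29.7 FPKM, and the difference was -11.34 ± 0.92 (adjusted p = 1.38e-09). Txnip, an inhibitor of thioredoxin, fell in polysomes from 10.3, 5.47 and 12.5 FPKM to 0.0624, 0.116 and 0.01 FPKM, while its non-polysome values were at most 1.38 FPKM in either stage. Tcl1b1 fell less in polysomes than outside them, where it went from 1896, 1461 and 1321 FPKM to 3.58, 1.22 and 1.55 FPKM (difference 4.70 ± 0.58, adjusted p = 2.91e-06).

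The same contrast at the first mitosis, zygote M against zygote, gave 258 genes called higher and 200 lower, with a median of -0.43. The change at the second mitosis differed from that at the first for 1889 genes (23.7%), 547 (6.87%) more positive and 1342 (16.8%) more negative at the second; the 4 groups share no library. Of 83 ribosomal protein genes, 46 were more positive at the second mitosis and 2 more negative, and the median of the list was -0.80 at the first. Rpl41 was at 2.51, 3.49 and 4.49 FPKM in zygote and at 5.81, 12.72 and 5.16 FPKM in zygote M polysomes, a change that was not called at the first mitosis and was smaller than at the second (difference 2.70 ± 0.73, adjusted p = 0.00795). Cdc20 rose at both, but more at the first, from 2.02, 3.37 and 1.65 FPKM to 214, 111 and 172 FPKM (difference -4.77 ± 0.51, adjusted p = 8.41e-08). Pttg1 and Cks1b went opposite ways: Pttg1 rose from 259, 105 and 232 FPKM in zygote to 2939, 2166 and 2846 FPKM in zygote M, and Cks1b from 22.4, 17.7 and 25.3 FPKM to 388, 270 and 324 FPKM (differences -5.99 ± 0.52 and -6.39 ± 0.52, adjusted p = 2.12e-09 and 5.26e-10). Nip7 rose at both, from 1.98, 1.38 and 1.49 FPKM to 15.2, 14.3 and 12.8 FPKM (difference -0.34 ± 0.62, adjusted p = 0.741), which does not show that its changes are equal. Of 80 maternal genes 35 were more negative at the second mitosis and 4 more positive.

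Against meiotic maturation, MII oocytes minus GV oocytes, 1874 genes (23.5%) had a different change, 385 (4.83%) more positive and 1489 (18.7%) more negative at the second mitosis, again with no shared library. The median of the ribosomal protein genes was 1.5 in meiosis, and 16 of 83 had a more positive change at the second mitosis and 0 a less positive one (3 at an unadjusted p under 0.05). Rpl41 was at 78.02, 142.5 and 22.5 FPKM in GV and 45.65, 52.01 and 35.96 FPKM in MII polysomes, groups that overlap (difference 4.31 ± 0.73, adjusted p = 7.84e-05). Ooep fell in both, from 3479, 3758 and 2497 FPKM in GV to 169, 231 and 284 FPKM in MII (difference 0.60 ± 0.59, adjusted p = 0.501). Of the maternal genes, 36 were more negative at the second mitosis and 2 more positive; Tcl1b1 rose from 24.5, 61.0 and 18.6 FPKM to 212, 399 and 232 FPKM in meiosis and fell at the second mitosis (difference -8.12 ± 0.58, adjusted p = 6.07e-11).

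**Figure D5:**
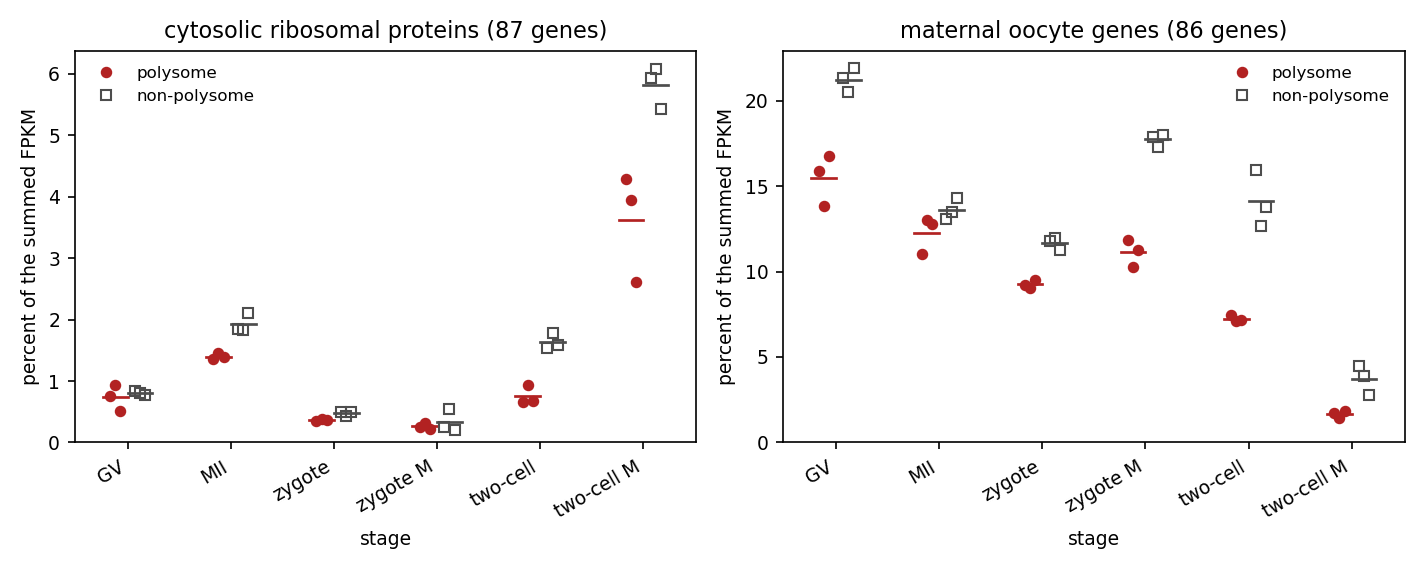
Percent of the summed FPKM taken by cytosolic ribosomal protein genes (left) and maternal oocyte genes (right) in each library by stage; filled circles are polysomes, open squares the non-polysome fraction and bars group means. The ribosomal share is highest and the maternal share lowest at two-cell M in both fractions.

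Some genes listed as markers of other cells that embryo collections could carry were present, with Hba-a1 at 33.5 to 82.9 FPKM and Krt18 at 9.25 to 25.1 FPKM in two-cell. Others of the same lists were not. Hbb-bt was at 0.01 FPKM in all 6 libraries, and Hbb-bs was at 0.0404 FPKM in two-cell B and at 0.01 FPKM elsewhere. Hba-a1 was not called (log2 fold change -0.71, limma adjusted p = 0.811). The erythroid sums below overlap between the groups, while the sums of the other marker lists do not. The sum of FPKM above the smallest value of 0.01, over 4 erythroid genes, was 34.3 to 83.6 in two-cell and 24.3 to 42.5 in two-cell M, nearly all of it Hba-a1. That of 9 oviduct genes was 10.0 to 31.4 against 0.986 to 2.42, mostly Krt18 in two-cell and mostly Epcam or Krt19 in two-cell M, with the defining marker Ovgp1 at or near 0.01 FPKM in every library. That of 7 sperm genes was 5.58 to 7.48 against 0.171 to 1.15, with Prm2 at 1.94, 6.30 and 3.41 FPKM in two-cell and at 0.01 FPKM in all of two-cell M, at least 9.70-fold lower when 3 fragments in the shallowest two-cell M library are taken as the limit. That of 12 cumulus and granulosa genes was 0.00237 to 3.56 against 4.36 to 15.6, mostly Amhr2 in two-cell M and Cyp11a1 in two-cell B, with Foxl2 and Fshr at 0.01 FPKM in all 6 libraries, and that of 7 leukocyte genes was 2.51 to 4.81 against 0 to 1.15. The sperm genes Akap4, Odf1 and Tnp2 and the leukocyte genes S100a8 and Tyrobp were also at 0.01 FPKM in all 6 libraries. Whether the transcripts that were present came from other cells or from the embryos was not tested, nor was the part of such cells in the results.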

How the data were processed

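Polysome and non-polysome RNA of 6 stages had been sequenced as SMART-seq v4 libraries with 150-base paired reads. The submitters' processing notes name Trim Galore 0.4.1, STAR 2.5.3a, GRCm38 and Partek. The authors deposited normalized FPKM values for 23125 genes in 36 libraries. Each library bottoms out at 0.01, which would follow from a constant that the authors put in before deposit. For single-exon genes, 72.8 to 75.8% of values under 8 fragments in the 6 libraries were whole fragments within 0.1, which gave the depth; other genes gave no whole counts, so no count test was run.

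The log2 of these deposited values, without a pseudocount, entered limma 3.58.1 (R 4.3.3), with a mean for each of 12 groups (24 residual degrees of freedom, empirical Bayes with trend). Differences between contrasts were tested as interaction terms. The script was tested on simulated data. Tables, start windows and plots were made with Python 3.11.15, pandas 2.3.3, numpy 2.4.6 and matplotlib 3.10.9. Lengths came from GENCODE M21 models and start windows from RefSeq.

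The text names, in each direction, the 10 called protein-coding genes with the largest change among those with a mean of at least 10 FPKM in the higher group, every library of it at 1 FPKM or more and no overlap; up to 3 called members of each list by adjusted p; 9 further genes, 8 of them named by the study (Elob is not, and had been listed in place of Elobl); and 3 genes per direction of each interaction. A further few, such as Bop1 and Foxl2, were chosen after their values were seen. The contrast, the 27 gene lists and 5 marker lists were chosen with earlier results of these data known. The design text calls the replicates biological triplicates, while the labels do not say that they are separate cultures; otherwise p-values measure only the spread between libraries. Whether libraries of one letter share a gradient is not given in the sources used here. Of the 13 mitochondrially encoded genes listed, 0 were found in the table under their listed names, so they could not be analysed here. Alternatives were another pseudocount, filter, scaling, set of libraries or weights, a replicate block and each library left out.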

Additional observations from a re-analysis of the deposited data

Results flagged for a closer look

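A test of the difference between contrasts singled out 3 sets of genes. The change from two-cell to two-cell M differed between polysomes and the non-polysome fraction for 458 genes. The named ones, as differences in log2 change, were Dolk (13.79), Bloc1s4 (13.69) and Mgat2 (9.24), more positive in polysomes, and Dpp7 (-13.29), Rce1 (-11.34) and Chac1 (-11.16), more negative. Of these Rce1 alone had all 12 values of the comparison above the smallest value of the table; the polysome level of Chac1 was at least 34.2-fold lower in two-cell M, where all 3 libraries were listed at 0.01 FPKM and the limit is 3 fragments in the shallowest library. The difference of Dolk was called in no more than 1 of the 6 fits that left out a library, that of Mgat2 not without two-cell M B, two-cell M C or two-cell B, and that of Chac1 not without two-cell A or two-cell B.

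The change differed between the second and the first mitosis for 1889 genes. Spout1 (11.63), Pttg1ip (11.03) and the ribosomal protein paralogue Rpl10l (10.85) were more positive at the second, and Dhrs1 (-12.45), F8a (-11.53) and Nat6 (-11.18) were more negative. Spout1 was at 0.329, 0.0967 and 0.428 FPKM in two-cell, 12.7, 13.4 and 9.57 FPKM in two-cell M, 3.67, 3.596 and 3.34 FPKM in zygote and 0.284, 0.0212 and 0.0275 FPKM in zygote M polysomes, so the direction was opposite at the 2 mitoses without overlap at either.

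The change differed between the second mitosis and meiotic maturation for 1874 genes. Slc39a4 (10.82), Mknk2 (9.55) and Tor1b (8.63) were more positive at the second mitosis, and Pdlim2 (-14.27), F8a (-13.62) and Ndufaf3 (-13.57) were more negative. The difference of Tor1b was called in 1 of the 6 fits that left out a library, that without two-cell C. Pdlim2 rose from 2.19, 1.56 and 0.969 FPKM in GV to 36.04, 26.6 and 38.8 FPKM in MII, and went from 10.5, 17.9 and 9.16 FPKM in two-cell to 0.01, 0.0152 and 0.0167 FPKM in two-cell M. Values at or near 0.01 FPKM set the size of most of these differences. In groups of 3, leaving out a library shows whether a call depends on it, but cannot tell whether that library is an outlier.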

How the results depend on the processing

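Of the named gene values under the alternatives, 2573 kept their direction and side of the threshold, 324 lost the threshold and 1 reversed: Klf17, whose log2 fold change was 0.31 with libraries centred on their median, a shift that is the same for every gene. Of the values of the gene lists, 1049 stayed within their limits and 352 moved. The cause was not tested unless the alternative's construction gives it. The count of genes higher in two-cell M, 648, became 1187 with no filter, 1482 with quantile normalization, 1448 after centring, 1079 with only the 18 polysome libraries and 248 with arrayWeights. The count lower, 2242, became 1343 with 1 added to each FPKM, 1490 with quantile normalization, 1213 after centring and 1146 with only the libraries of the groups compared, which leaves 4 residual degrees of freedom. With the filter over the 12 two-cell and two-cell M libraries, chosen after seeing the data, 864 were higher and 1462 lower of 6526 genes. The genes kept were 639 of the 648 and 1446 of the 2242 with quantile normalization, all 648 and 1213 after centring, and 376 and 1105 with only the groups compared. The 458 differences between fractions became 1463 after centring, 109 with only the groups compared and 75 with arrayWeights. With only the 18 polysome libraries, 2957 differences from the first mitosis and 2914 from meiosis were called, against 1889 and 1874. Calls that were higher made up 32.8% with no filter, 37.2% with 1 added, 49.9% with quantile normalization, 12.1% with arrayWeights and 37.1% with the filter over 12 libraries.

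Leaving out 1 library gave 479 to 569 genes higher, 1778 to 2216 lower, 373 to 532 differing between fractions, 1617 to 2025 from the first mitosis and 1603 to 2084 from meiosis. Replicate letters did not pair two-cell M with two-cell libraries: deviations of same-lettered libraries correlated at -0.0101, 0.0633 and 0.0226. These values do not cover pairs between polysomes and the non-polysome fraction. A replicate block gave 636 higher, 2182 lower and 416, 1700 and 1824 differences in the same order. Depth limits the lowest genes: 3 fragments on 1 kb stand for 0.143 to 0.157 FPKM in two-cell and 0.154 to 0.270 FPKM in two-cell M, so levels below that cannot be told from absence, and the M-phase libraries B and C were the shallowest.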

Other observations

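Among the most abundant entries of two-cell polysomes were transcripts that fell in two-cell M. Ubb, which encodes polyubiquitin, was at 3826, 3451 and 3191 FPKM in two-cell and at 965, 1079 and 2919 FPKM in two-cell M (-1.26 ± 0.30, adjusted p = 0.00181 by limma). The unclassified transcripts Gm36976 and Gm42553 went from 3820, 2085 and 3783 FPKM to 652.5, 381.8 and 1647 FPKM and from 1522, 922 and 1991 FPKM to 266, 123 and 607 FPKM (-2.07 ± 0.37 and -2.38 ± 0.38), and the lincRNA Gm38025 from 2206, 1226 and 2275 FPKM to 421, 170 and 1095 FPKM (-2.10 ± 0.43). In all of these two-cell M C was the highest of the M-phase libraries, and the groups did not overlap. The lincRNA Gm10076 went the other way, from 349.6, 490.5 and 442.4 FPKM to 6195, 4676 and 3002 FPKM (3.39 ± 0.43, adjusted p = 8.37e-07), as did Gm20594, from 625.2, 623.3 and 1159 FPKM to 4234, 3532 and 3864 FPKM (2.33 ± 0.39). The histone gene Hist1h2ap was among the 10 most abundant of both groups and was not called, at 1240, 2758 and 1568 FPKM against 2559, 3174 and 3428 FPKM (0.79 ± 0.53, adjusted p = 0.249).

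Of the 648 genes called higher, 456 were annotated as protein-coding and 143 as pseudogenes, and of the 2242 called lower 1840 and 176. Of the 7967 genes tested, 6400 were protein-coding. Tested alone, 7.16% of these were called higher and 28.9% lower, against 8.13% and 28.1% over all genes. Pseudogenes among all genes tested were not counted, so whether their share of the calls is unusual cannot be judged here. Pseudogenes of ribosomal proteins can take reads of their parent genes.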
